A study of Homo sapiens with 36 samples.

Results

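Glycolysis splits glucose into pyruvate, and several of its steps are carried out by alternative isoenzymes that differ between proliferating cells and neurons. Pluripotent stem cells are known for high glycolytic flux, and neurons for relying more on mitochondrial oxidation of pyruvate. HK2, LDHA and ENO1 are commonly named on the proliferative side, and HK1, LDHB, ALDOC and ENO2 (neuron-specific enolase) on the neural side. Many genes of the pathway, LDHA, HK2 and SLC2A1 among them, are known targets of the hypoxia-inducible factors and of MYC.

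10 genes of this pathway were followed, chosen by symbol, with earlier results of these data known. Counts of them set beside shares over all genes are therefore descriptions. They are the glucose transporter SLC2A3, the hexokinases HK1 and HK2, and the platelet-type phosphofructokinase PFKP. The others are the aldolases ALDOA and ALDOC, the enolases ENO1 and ENO2, and the lactate dehydrogenase subunits LDHA and LDHB. All 10 were found among the 62710 genes counted, and all 10 passed the filter on low counts in every comparison. The RNA came from H9, a human embryonic stem cell line, driven towards neurons by doxycycline-induced NGN2, a proneural transcription factor; doxycycline switches the transgene on. The 36 libraries form 9 groups of 4: cells labelled WT, HET (RAI1+/-) and KO (RAI1-/-), each at days 0, 3 and 7 of induction. RAI1 encodes a nuclear protein that acts in gene regulation. All 3 genotypes share the H9 background, the NGN2 induction, growth on Geltrex in mTeSR Plus before induction, and Neurobasal-A with B27, GDNF, NT3 and CultureOne during it. How many clones stand behind each mutant genotype is not given in the sources used here, so a clone and its genotype cannot be told apart. The replicates are described as biological, with no word on whether they came from separate inductions, so p-values measure the spread between these libraries only.

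Total RNA was depleted of ribosomal RNA and sequenced to 23948079 to 56678796 counts per library. The lowest count of any of the 10 genes in any library was 222, for PFKP. RAI1 RNA was not lower in the mutants: at day 7 the KO libraries averaged 84.7 CPM (counts scaled by the total of their library), the HET libraries 73.3 and the WT libraries 52.4 (KO against WT log2 0.69, adjusted p = 0.0296), so RNA level gives no check of the edit and the genotypes stand as labelled. 5 small structural RNAs took 2.837 to 27.474% of the counts but 47.89 to 86.47% of the deposited TPM (a unit that divides by transcript length). For that reason levels are compared between libraries as CPM with TMM scaling, and TPM is used only to compare genes with each other inside a library. The summed pluripotency markers fell from 2592 to 3461 CPM at day 0 in WT to 66.9 to 72.5 CPM at day 7, with TDGF1 at 0, and the summed neuronal markers stood at 291 to 589 CPM at day 0 and at 7391 to 15017 at day 7. The label iNeuron is thus also carried by the day 0 libraries, whose markers were those of pluripotent cells. In bulk RNA, fewer cells of a type and less RNA per cell cannot be told apart.

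**Figure D1:**
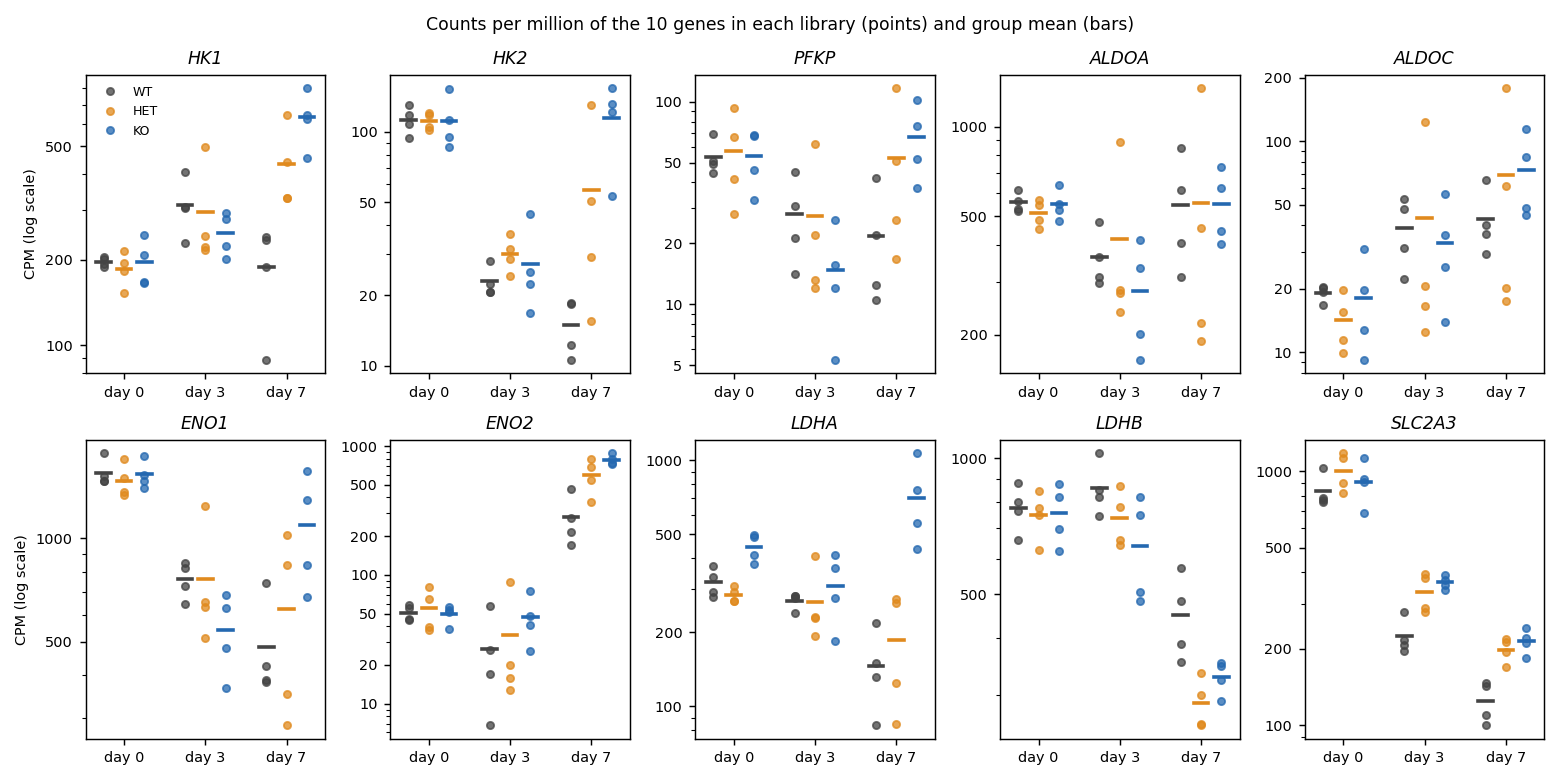
Each point is the CPM of 1 gene (panel) in 1 library, on a log axis, against the day of induction; colours mark the labelled genotype and bars the mean of 4 libraries. LDHA and HK1 in the 4 KO libraries of day 7 lie above all WT libraries of that day, and single high points in HET at day 3 belong to replicate 4.

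During induction of the WT cells, most of the 10 genes fell. From day 0 to day 7, HK2, ENO1, LDHA, PFKP, LDHB and SLC2A3 fell, ALDOC and ENO2 rose, and HK1 and ALDOA did not pass the test. That is 2 of 10 higher and 6 of 10 lower, where 35.4% of 22268 genes tested were higher and 32% lower (edgeR's quasi-likelihood test, Benjamini-Hochberg adjusted p under 0.05 over all genes tested, as throughout). For only 10 genes, the count of higher genes is not far from the share over all genes. The median log2 change of the 10 was -0.96, against 0.1 over all genes. Between day 0 and day 3, 2 were higher (background 31.2%) and 4 lower (28.7%). Between day 3 and day 7, 1 was higher (23.3%) and 6 lower (22.9%).

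**Figure D2:**
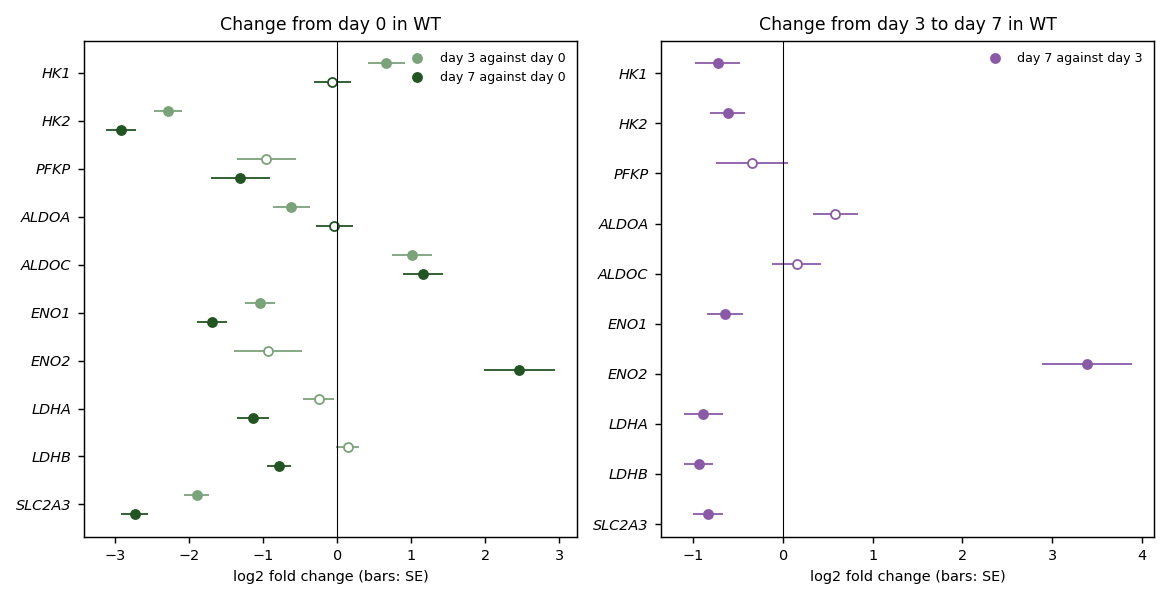
Log2 fold change of each gene in the WT libraries, day 3 and day 7 against day 0 (left) and day 7 against day 3 (right), with bars for the standard error and filled points for adjusted p under 0.05. HK2 and SLC2A3 lie furthest to the left at both days, and ENO2 moves to the right of 0 only between day 3 and day 7.

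SLC2A3 (ENSG00000059804, chr12:7919230-7936275, minus strand) encodes GLUT3, the high-affinity glucose transporter known for its abundance in neurons. In these WT cells it stood highest before induction, at 756, 1033, 768 and 781 CPM. By day 3 it was at 216, 278, 196 and 207 CPM, and by day 7 at 100, 110, 142 and 147 CPM. No day overlapped another. The fall was 6.7-fold over 7 days (log2 change -2.74, SE 0.18, adjusted p = 8.24e-09), with most of it before day 3 (-1.90, SE 0.17, adjusted p = 4.18e-07). Near-identical copies, SLC2A14 and 3 processed pseudogenes, held counts equal to 0.853 to 15.6% of those of SLC2A3, most in WT replicate 2 of day 7, so its level there is the less certain.

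Hexokinase phosphorylates glucose on entry; HK1 is the form most tissues share and HK2 the one induced in proliferating and insulin-responsive cells. HK2 (ENSG00000159399, chr2:74833981-74893359, plus strand) was at 130, 94.3, 118 and 108 CPM at day 0 in WT. At day 3 it was at 28.1, 22.4, 20.7 and 20.7 CPM, and at day 7 at 10.6, 18.4, 18.5 and 12.3 CPM. The 3 days did not overlap, and the fall to day 7 was 7.54-fold (log2 -2.92, SE 0.20, adjusted p = 1.28e-08). HK1 (ENSG00000156515, chr10:69269984-69401884, plus strand) went from 188 to 204 CPM at day 0 to 229 to 407 CPM at day 3 (log2 0.66, SE 0.25, adjusted p = 0.0344). It was back at 89, 188, 240 and 235 CPM at day 7, where the change from day 0 was -0.07 (SE 0.25, adjusted p = 0.815), and the fall from day 3 (log2 -0.73, SE 0.25, adjusted p = 0.0275) was lost without replicate 4 of day 3 or 2 of day 7. The rise of HK1 at day 3 no longer passed without any 1 of the WT libraries of day 0, or without replicate 1, 2 or 4 of day 3. On log2 TPM its direction turned (-0.41), where the median of all genes also shifted, by -0.38. An antisense-strand neighbour, AC019069.1, held counts equal to at most 10% of those of HK2.

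The middle steps moved less than SLC2A3 and HK2. PFKP (ENSG00000067057, chr10:3066333-3137712, plus strand), 1 of the 3 subunits of the committed enzyme of glycolysis, was at 51.3, 69.2, 44.7 and 49.1 CPM at day 0 and at 12.5, 22.1, 42.3 and 10.5 CPM at day 7 in WT. All 4 later values lie below the earlier ones (log2 -1.31, SE 0.40, adjusted p = 0.00987). ALDOA (ENSG00000149925, chr16:30064164-30070457, plus strand), the aldolase of muscle and most other cells, was lower at day 3, at 313, 298, 364 and 480 CPM, than at day 0, at 565, 612, 522 and 528 CPM (log2 -0.62, SE 0.25, adjusted p = 0.0426). That call was lost without any 1 library of day 0 or without replicate 1, 2 or 3 of day 3. At day 7 ALDOA ranged from 314 to 846 CPM and overlapped both earlier days. ALDOC (ENSG00000109107, chr17:28573115-28577264, minus strand), the brain aldolase, was at 16.8 to 20.4 CPM at day 0, 22.2 to 53.4 at day 3 and 29.4 to 66.0 at day 7. Its 2.23-fold rise over 7 days (log2 1.16, SE 0.27, adjusted p = 0.00156) separated all libraries of the 2 days. The rise turned on log2 TPM (-0.23), where the median of all genes also shifted, by -0.52. It turned as well with the share of small structural RNA as a covariate (-0.18). That share itself moved with the day, from 4.513 to 6.419% at day 0 to 14.485 to 25.58% at day 7, and its part in the result was not tested. In the fit over all 36 libraries the rise, again 1.16 on the log2 scale, did not pass.

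Enolase makes phosphoenolpyruvate, and the change of isoenzyme at this step is the classical sign of a neuron. ENO1 (ENSG00000074800, chr1:8861000-8879250, minus strand) fell from 1466, 1765, 1465 and 1515 CPM at day 0 to 645, 726, 818 and 849 CPM at day 3 and 382, 425, 741 and 388 CPM at day 7. The 3.22-fold fall over 7 days (log2 -1.69, SE 0.20, adjusted p = 3.60e-06) left replicate 3 of day 7 well above the other 3. ENO2 (ENSG00000111674, chr12:6913745-6923698, plus strand) did not climb at once. It was at 44.5, 55.2, 45.6 and 58.3 CPM at day 0, at 6.82, 17.1, 26.3 and 57.1 CPM at day 3, and at 171, 275, 464 and 215 CPM at day 7. The difference between days 0 and 3 did not pass (log2 -0.93, SE 0.46, adjusted p = 0.0932), and the rise from day 3 to day 7 was 10.51-fold (log2 3.39, SE 0.50, adjusted p = 6.57e-05). The rise from day 0 to day 7 (log2 2.46, adjusted p = 0.000367) did not pass with the share of small structural RNA as a covariate (log2 1.05, adjusted p = 0.284). LRRC23 overlaps ENO2 on the same strand; its counts were at the median 3.01% of those of ENO2, but reached 84.3% in WT replicate 1 of day 3, so the lowest ENO2 value is the least certain.

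Lactate dehydrogenase interconverts pyruvate and lactate as a tetramer of LDHA and LDHB subunits; LDHA-rich tetramers are known to favour lactate, and LDHB-rich ones prevail in heart and neurons. LDHA (ENSG00000134333, chr11:18394388-18408425, plus strand) was at 337, 372, 277 and 292 CPM at day 0, at 240, 281, 275 and 281 at day 3 and at 131, 150, 218 and 83.8 at day 7 in WT. Its fall came after day 3 (log2 -0.89, SE 0.22, adjusted p = 0.00367), and days 3 and 7 did not overlap. LDHB (ENSG00000111716, chr12:21635342-21757857, minus strand) was at 660 to 881 CPM at day 0, 745 to 1025 at day 3 and 355 to 573 at day 7. It fell in step with LDHA between days 3 and 7 (log2 -0.94, SE 0.16, adjusted p = 0.000292), and the 0.14 difference between days 0 and 3 did not pass (adjusted p = 0.457; -0.90 on log2 TPM, where the median of all genes also shifted, by -0.38).

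Levels between genes can be read from TPM inside a library. In WT at day 0 the order was ENO1 (855 TPM), LDHB (620), ALDOA (352), SLC2A3 (187), LDHA (149), HK1 (46.9), ENO2 (21.3), PFKP (17.5), HK2 (16.4) and ALDOC (11.1). PFKP and HK2 did not differ beyond their spread, since PFKP was the higher in only 1 of 4 libraries. At day 7 in WT, LDHB (132 TPM), ALDOA (126) and ENO1 (95.9) led with overlapping ranges, and HK2 closed the order at 0.84. In KO at day 7 ENO1 led (323 TPM), LDHA (178) lay beside ENO2 (177), above it in 2 of 4 libraries, and LDHB (145) was the fifth.

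The balance inside each isoenzyme pair was taken as the log2 ratio of TPM in a library, as a description with no test. HK1 over HK2 went from 1.53 ± 0.23 (SD, n = 4) at day 0 to 4.32 ± 0.39 at day 3 and 4.20 ± 0.45 at day 7 in WT. ENO2 over ENO1 was -5.32 ± 0.19, -5.56 ± 1.10 and -1.19 ± 0.24 on the same days, so that ENO2 made up 25.6 to 33.2% of the enolase pair at day 7. ALDOC over ALDOA moved from -4.98 ± 0.25 to -3.42 ± 0.35 and -3.71 ± 0.35. LDHB over LDHA kept nearly the same balance, 2.06 ± 0.32, 2.43 ± 0.09 and 2.40 ± 0.49. The hexokinase, enolase and aldolase pairs thus shifted during induction in WT, while both LDH subunits declined at similar rates.

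**Figure D3:**
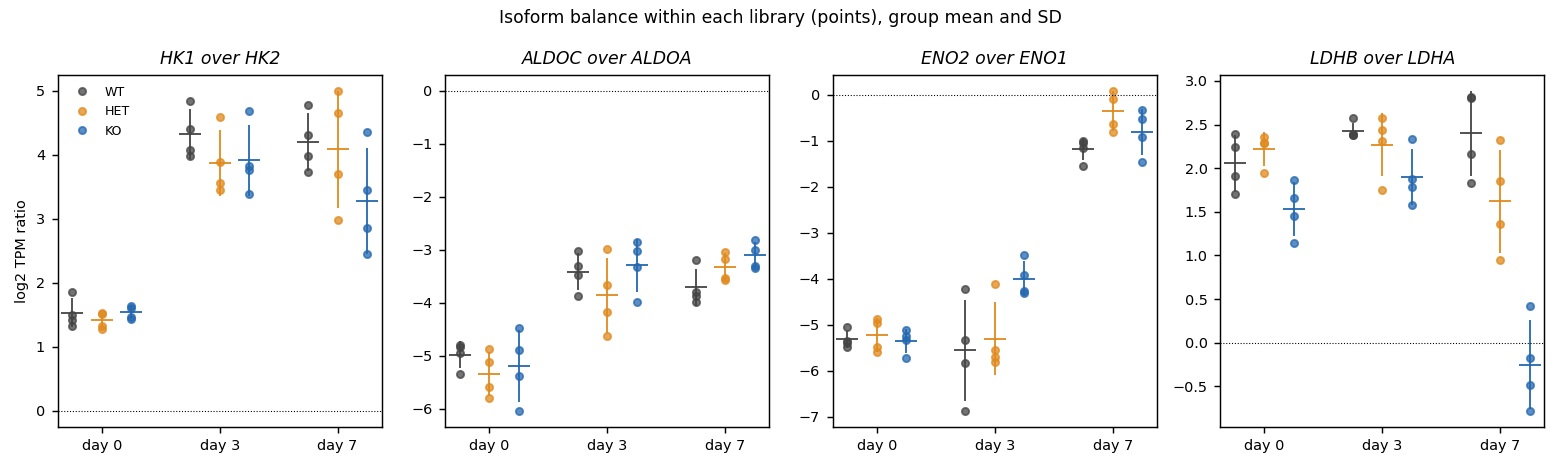
The log2 ratio of TPM of 2 isoenzymes in each library (points) by day and labelled genotype, with the mean (horizontal mark) and SD (line) of 4 libraries; the dotted line marks equal TPM. The LDHB over LDHA ratios of the 4 KO libraries at day 7 average -0.25, and all 4 lie below those of every other group.

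Before induction, KO differed from WT in LDHA among the 10 genes, and HET in none. In libraries labelled KO, LDHA was at 487, 497, 380 and 414 CPM at day 0, all above the WT range of 277 to 372 CPM (log2 0.51, SE 0.11, adjusted p = 0.0305). Thus 1 of 10 genes was higher, where 1.66% of 20437 genes tested were. The call was lost without KO replicate 1 or 2, without WT replicate 1, 3 or 4, in the fit over all 36 libraries and on log2 TPM. LDHA in KO was also above HET, at 269, 307, 268 and 292 CPM (log2 0.65, SE 0.11, adjusted p = 0.00942), 1 of 10 against a background of 0.524%. None of the 10 passed between HET and WT at day 0 (background 1.63%; 0 at an unadjusted p under 0.05 and 0 by DESeq2). The other 9 genes were within 0.15 of WT on the log2 scale in KO.

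At day 3, the transporter SLC2A3 was higher in KO than in WT. It was at 373, 390, 358 and 340 CPM in KO, above all 4 WT libraries (log2 0.69, SE 0.17, adjusted p = 0.00991). It was the only 1 of 10 to pass, near the 12.6% of 21563 genes that were higher, and LDHA did not pass at this day. In HET, SLC2A3 was at 289, 380, 394 and 280 CPM, also above the highest WT library at 278 (log2 0.59, SE 0.17, adjusted p = 0.0739, not passed; 3.28% of genes were called in either direction, 1 of 10 had an unadjusted p under 0.05, and DESeq2 called 1). Same-numbered KO and WT libraries, and HET and WT libraries, deviated together at this day, so the fit with the replicate number as a block is given too. With it, KO differed from WT in 5 of the 10: SLC2A3 and ENO2 were higher (background 19.4%) and PFKP, ENO1 and LDHB lower (18.4%). SLC2A3 was then also higher in HET (1 of 10, background 5.73%). Without the block, none of the 10 passed between KO and HET (4.35% of genes did; 0 at an unadjusted p under 0.05 and 0 by DESeq2). With it, PFKP was lower in KO than in HET (adjusted p = 0.0498).

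The ENO2 values of day 3 show what the block takes up. KO libraries were at 25.8, 40.8, 47.8 and 74.6 CPM and WT at 6.82, 17.1, 26.3 and 57.1 CPM, each KO library above the WT library of its number, with overlapping groups (log2 0.80, SE 0.66, adjusted p = 0.411 without the block). HET was at 12.8, 20, 15.8 and 88.4 CPM. In HET, replicate 4 stood apart for several of the genes, with 886 CPM of ALDOA where the other 3 had 239 to 282. Neuronal markers were already ahead at day 3 in KO, with 11 of 12 higher where 12.6% of all genes were (summed 6013 to 9900 CPM, 1494 to 1879 in WT). Of 8 proliferation markers, 5 were lower where 8.93% of all genes were (487 to 1349 CPM, 1519 to 2666 in WT). Their part in the results of day 3 was not tested.

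**Figure D4:**
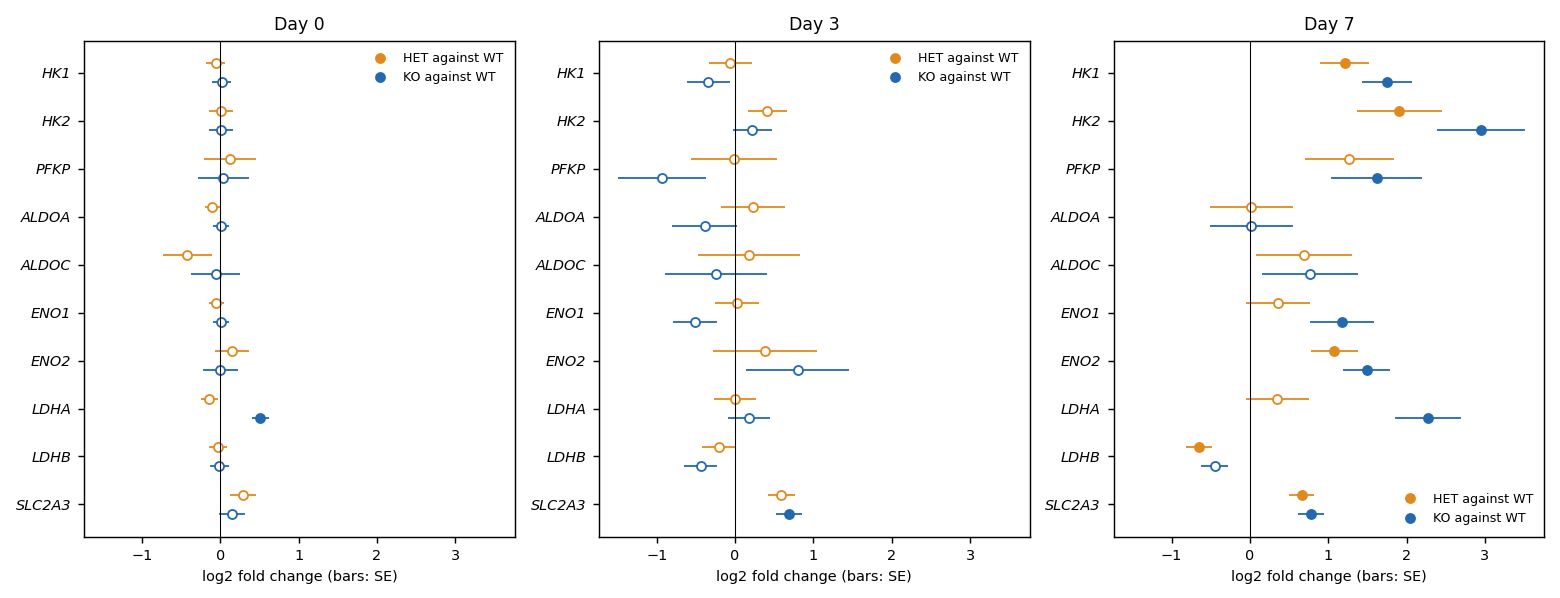
Log2 fold change of HET and KO against WT for each gene at days 0, 3 and 7, with bars for the standard error and filled points for adjusted p under 0.05. At day 7, 7 KO points are filled and to the right of 0, and the 2 LDH subunits lie on opposite sides of 0.

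At day 7, 7 of the 10 genes were higher in KO than in WT and 4 in HET. In KO, HK2, LDHA, HK1, PFKP, ENO2, ENO1 and SLC2A3 were above WT, 7 of 10 where 17% of 21714 genes were. None was lower, ALDOA and ALDOC did not pass, and LDHB was below WT without passing. The median log2 difference of the 10 was 1.34, against -0.04 over all genes. In HET, 4 were higher (background 8.31%), namely HK2, HK1, ENO2 and SLC2A3, and LDHB was lower (6.1%), with a median of 0.68 against 0.00.

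HK2 differed most. The KO libraries held 154, 53.1, 122 and 132 CPM, all above the WT maximum of 18.5 (7.72-fold, log2 2.95, SE 0.56, adjusted p = 0.00173). The KO mean of 115 CPM lay beside the WT mean of 112 at day 0, with overlapping ranges. HET libraries were spread widely, at 50.6, 29.2, 131 and 15.5 CPM, and the lowest fell inside the WT range (log2 1.91, SE 0.54, adjusted p = 0.0307). HK1 was at 645, 624, 801 and 456 CPM in KO and at 329, 439, 645 and 329 in HET, with every library above the WT maximum of 240 (KO 3.37-fold, log2 1.75, SE 0.32, adjusted p = 0.00132; HET 2.31-fold, log2 1.21, SE 0.31, adjusted p = 0.0211). The HK1 over HK2 ratio in KO was 3.28 ± 0.83, and its range overlapped that of WT.

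The LDH pair set KO apart from WT at day 7. LDHA was at 1067, 435, 760 and 557 CPM in KO, all above the highest WT library at 218 (4.84-fold, log2 2.27, SE 0.42, adjusted p = 0.00138). In HET it was at 262, 124, 274 and 84.7 CPM and overlapped WT (log2 0.35, SE 0.40, adjusted p = 0.608). LDHB stood at 348, 353, 323 and 291 CPM in KO, below all 4 WT libraries at 573, 389, 484 and 355, without passing (log2 -0.45, SE 0.17, adjusted p = 0.0592). In HET it was lower, at 335, 258, 299 and 257 CPM (log2 -0.65, SE 0.17, adjusted p = 0.0227). LDHB made up 78.1 to 87.7% of the pair's TPM in WT and 36.9 to 57.3% in KO, where the log2 ratio was -0.25 ± 0.51 (HET 1.62 ± 0.59, WT 2.40 ± 0.49). The ratios of HET and WT overlapped.

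LDHA was also the gene in which KO went beyond HET at day 7 (log2 1.93, SE 0.41, adjusted p = 0.0363), 1 of 10 where 0.668% of genes were higher. This was lost without KO replicate 1 or 3 or without HET replicate 2 or 4, while leaving out HET replicate 3 gave 2 of 10 (the count over all genes in that fit is not given here). For HK2 the 2 mutants differed by 1.04 (SE 0.52, adjusted p = 0.404) and for HK1 by 0.54 (SE 0.31, adjusted p = 0.469), neither of which passed.

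The promoters of the 2 LDH genes are shown because their transcripts parted, and those of the 2 enolases because both rose together in KO at day 7. Each window runs from 250 bases before to 50 after a RefSeq transcription start (300 bases, build GRCh38.p14, gene strand, 5′ to 3′). Capitals mark ACGTG or GCGTG on either strand, the core letters of the hypoxia response element; on the other strand they read CACGT or CACGC, and a CACGTG holds 1 match on each strand.
LDHA (chr11:18394313-18394612, plus strand): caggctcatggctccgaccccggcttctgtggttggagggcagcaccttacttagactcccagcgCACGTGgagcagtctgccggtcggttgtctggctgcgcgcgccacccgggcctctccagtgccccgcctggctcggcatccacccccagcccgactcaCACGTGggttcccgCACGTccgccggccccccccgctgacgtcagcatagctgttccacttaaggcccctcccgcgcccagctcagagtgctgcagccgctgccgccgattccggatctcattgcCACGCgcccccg
LDHB (chr12:21657793-21658092, minus strand): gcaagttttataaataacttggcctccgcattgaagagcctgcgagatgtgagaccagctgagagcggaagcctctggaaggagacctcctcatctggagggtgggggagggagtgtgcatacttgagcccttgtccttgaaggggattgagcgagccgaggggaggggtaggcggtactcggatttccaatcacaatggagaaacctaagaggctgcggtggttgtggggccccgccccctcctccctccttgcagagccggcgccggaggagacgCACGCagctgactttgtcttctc
ENO1 (chr1:8878637-8878936, minus strand): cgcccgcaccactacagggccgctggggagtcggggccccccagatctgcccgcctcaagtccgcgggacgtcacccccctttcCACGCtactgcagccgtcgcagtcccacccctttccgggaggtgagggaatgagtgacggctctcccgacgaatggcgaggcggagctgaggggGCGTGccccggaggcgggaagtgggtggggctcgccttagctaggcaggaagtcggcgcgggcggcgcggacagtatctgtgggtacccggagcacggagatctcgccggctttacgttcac
ENO2 (chr12:6914330-6914629, plus strand): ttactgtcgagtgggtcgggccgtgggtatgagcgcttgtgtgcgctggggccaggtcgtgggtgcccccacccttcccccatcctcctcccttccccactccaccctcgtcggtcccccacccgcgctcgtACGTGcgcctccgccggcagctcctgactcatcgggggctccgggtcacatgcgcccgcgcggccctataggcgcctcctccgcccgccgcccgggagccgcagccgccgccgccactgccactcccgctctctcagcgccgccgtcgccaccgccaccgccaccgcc
The LDHA window shown, the first of 2 in the table, held 6 matches, with 2 CACGTG hexamers (the E-box bound by MYC among others). The second LDHA window (chr11:18396101-18396400, not shown) held 1 match and no CACGTG. The LDHB window also held 1, the ENO1 window 2 and the ENO2 window 1. Of 22 such windows of 9 of the genes (SLC2A3 had no entry), 15 held ACGTG or GCGTG (68.2%), where 48.4% of all 35116 promoter windows in the table did. CACGTG was in 4 of the 22, and in 7.26% of all windows. CAGATG or CAGCTG, E-box letters read by proneural factors, were in 3 of the 22 and in 29.8% of all. A match describes letters, not a bound site.

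ENO2, the neuronal enolase, was at 794, 727, 878 and 740 CPM in KO, all above the WT maximum of 464 (2.8-fold, log2 1.49, SE 0.30, adjusted p = 0.0025). HET lay between, at 790, 549, 683 and 367 CPM, and overlapped WT (log2 1.08, SE 0.30, adjusted p = 0.0269). ENO1, the form that fell during induction, was higher in KO as well, at 1573, 673, 1291 and 834 CPM against 382, 425, 741 and 388 in WT (log2 1.18, SE 0.41, adjusted p = 0.0419). Both enolases were thus higher in KO. The ENO2 over ENO1 ratio was -0.81 ± 0.50 in KO, -0.36 ± 0.43 in HET and -1.19 ± 0.24 in WT. It overlapped between KO and WT, while all HET libraries (-0.82 to 0.09) lay above all WT libraries (-1.54 to -1.01).

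PFKP was at 102, 37.4, 76.0 and 52.4 CPM in KO and 12.5, 22.1, 42.3 and 10.5 in WT (log2 1.62, SE 0.58, adjusted p = 0.047). The calls of PFKP and ENO1 each depended on single libraries: both were lost without KO replicate 1 or 3 or without WT replicate 1, 2 or 4, and PFKP also without KO replicate 4. SLC2A3 was at 220, 184, 211 and 241 CPM in KO and at 194, 169, 213 and 218 in HET, with no overlap with WT at 100 to 147 (KO log2 0.78, SE 0.16, adjusted p = 0.00299; HET 0.66, SE 0.16, adjusted p = 0.016). The aldolases gave no call. ALDOA averaged 550 CPM in KO and 545 in WT (log2 0.02, SE 0.53), and ALDOC 73.2 and 43.1 (log2 0.77, SE 0.61, adjusted p = 0.351).

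Several of these genes ranked the KO libraries alike at day 7. LDHA, ENO1, PFKP, ALDOA and ALDOC were each highest in replicate 1 and second in replicate 3. The HET libraries of day 7 were wider apart than those of KO: replicate 1 had 1346 CPM of ALDOA and 179 of ALDOC, and replicate 3 had 131 CPM of HK2. Their shares of small structural RNA were 27.474, 2.837, 4.167 and 13.351%, and 9.896 to 15.841% in KO. With that share as a covariate KO kept 7 of 10 calls (5460 of 21714 genes were called) and HET 2 (2334 of 21714). Without HET replicate 3 none of the 10 differed between HET and WT, and without 1 of the WT libraries 1 to 3 did, so the HET calls at day 7 changed with single libraries. The KO count was 5 to 7 when any 1 library was left out. With 1 library fewer, calls can be lost over all genes too, and the counts over all genes in those fits are not given here.

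The time courses themselves were compared by interaction terms over all 36 libraries. From day 3 to day 7, HK1, HK2, PFKP, ENO1 and LDHA changed differently in KO and in WT, 5 of 10 where 7.6% of 24764 genes had a positive difference. The differences in log2 change were 2.07 (SE 0.38, adjusted p = 0.000158) for HK1, 2.7 (SE 0.54, adjusted p = 0.000505) for HK2 and 2.07 (SE 0.43, adjusted p = 0.000785) for LDHA. ENO1 differed by 1.67 (SE 0.44, adjusted p = 0.00651) and PFKP by 2.52 (SE 0.79, adjusted p = 0.0214), the latter lost without KO replicate 1 of day 7 or WT replicate 4 of day 3. ENO2 (0.66, SE 0.68, adjusted p = 0.566) and SLC2A3 (0.07, SE 0.23, adjusted p = 0.88) did not pass. In HET only HK1 passed over that interval (1.3, SE 0.38, adjusted p = 0.0387; background 2.06%), and it was lost without replicate 1, 2 or 3 of HET at day 3, 2 or 3 of HET at day 7, 1, 2 or 4 of WT at day 3, or 1 or 2 of WT at day 7. From day 0 to day 3 no gene of the 10 passed in KO (8.55% of genes did; 1, SLC2A3, at an unadjusted p under 0.05, and 0 by DESeq2) or in HET (0.271%; 0 and 0).

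Around the 10 genes, 56 other genes of glucose and lactate transport, glycolysis, its control and pyruvate entry were read from the same fits. In KO at day 7, 11 of 51 tested were higher (17% over all genes) and 6 lower (15.6% over all genes), with a median log2 difference of 0.32 against -0.04. These counts are near those over all genes. SLC2A1, which encodes the ubiquitous transporter GLUT1, was at 83.2, 48.6, 65.2 and 49.6 CPM in KO and 6.6, 9.26, 8.83 and 9.88 in WT (log2 2.83, SE 0.41, adjusted p = 0.000334). PDK1, a kinase that inactivates pyruvate dehydrogenase, averaged 323 CPM against 110 (log2 1.56, SE 0.33, adjusted p = 0.0034), and the ATP-forming PGK1 709 against 244 (log2 1.54, SE 0.31, adjusted p = 0.00256). ENO3 and PGAM2, the muscle forms of enolase and phosphoglycerate mutase, were lower (log2 -1.69 and -1.59, adjusted p = 0.00147 and 0.0183). In HET at day 7, 4 of 51 were higher and 4 lower, near the 8.31% and 6.1% over all genes. SLC2A1 was there at 16.8, 22.5, 63.3 and 16.0 CPM (log2 1.77, SE 0.39, adjusted p = 0.0101). At day 3 in KO, 4 of 47 were higher (12.6% over all genes) and 3 lower (8.93%), led by PDP1, a phosphatase that activates pyruvate dehydrogenase (log2 1.36, SE 0.31, adjusted p = 0.00744), and SLC2A10 (log2 -1.34, SE 0.30, adjusted p = 0.00697). At day 0 none of 48 passed between KO and WT (2.08% of all genes did).

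In WT, 15 of 49 tested pathway genes were higher and 16 lower at day 7 than at day 0, near the 35.4% and 32% over all genes. SLC2A1 fell furthest (log2 -5.28, SE 0.21, adjusted p = 1.07e-10), from a mean of 336 CPM to 8.64. SLC16A1, which encodes the lactate and pyruvate carrier MCT1, also fell (log2 -2.46, SE 0.15, adjusted p = 4.12e-09). The muscle enolase ENO3 rose (log2 4.03, SE 0.21, adjusted p = 9.62e-10), as did the lactate exporter SLC16A3 (4.51, SE 0.64, adjusted p = 2.13e-05).

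**Figure D5:**
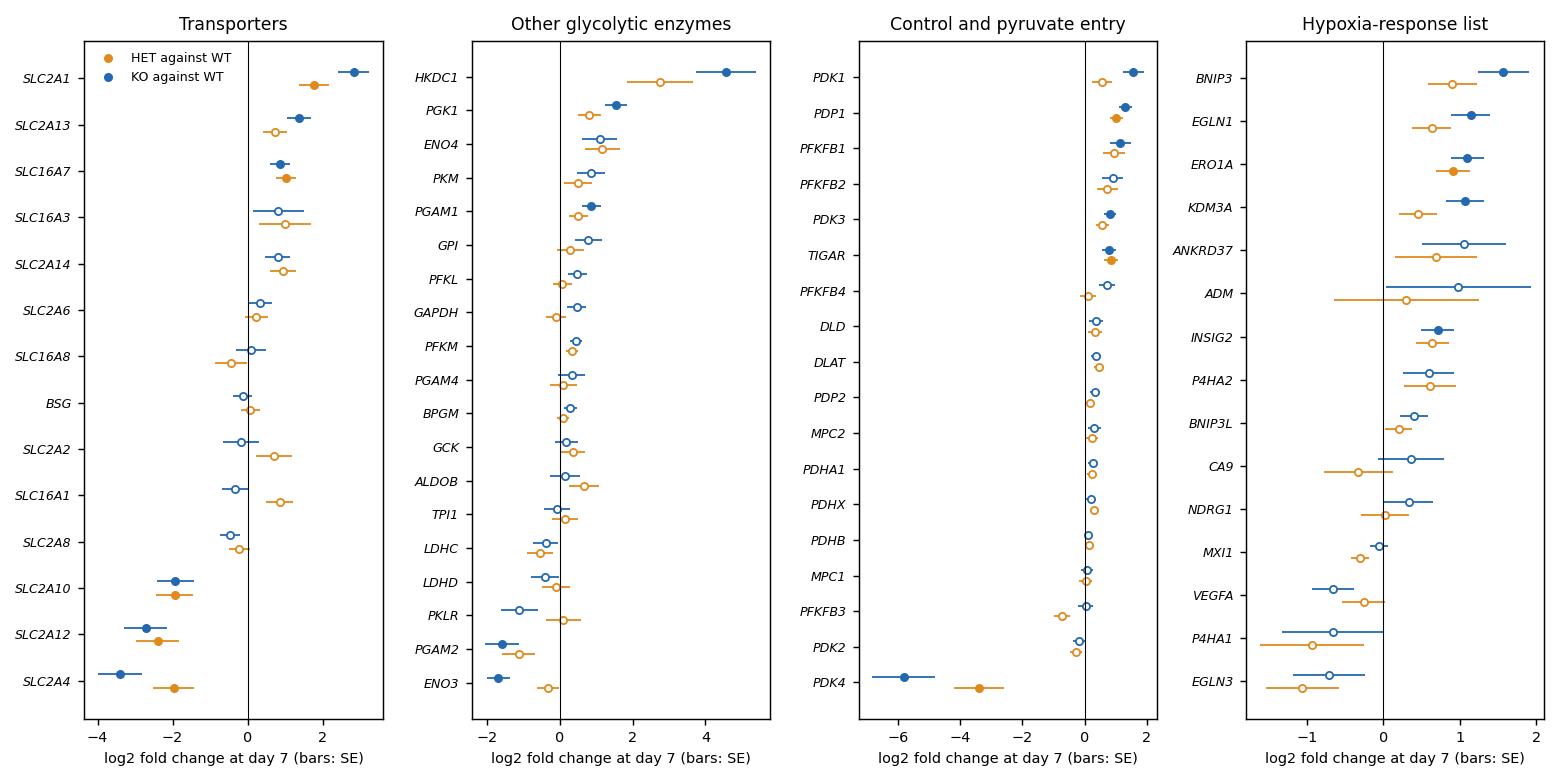
Log2 fold change at day 7 of HET and KO against WT for other pathway genes in 3 groups and for a list of hypoxia-response genes, ordered by the KO value in each panel; bars are standard errors and filled points have adjusted p under 0.05. SLC2A1 heads the transporters at 2.83 in KO, and 5 of 15 hypoxia-response genes are filled in KO, all to the right of 0.

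Genes known to respond to low oxygen, leaving out those of glycolysis itself, were listed as well. In WT from day 0 to day 7, 9 of 15 were higher (35.4% over all genes) and 2 lower (32%). Their median log2 change was 1.15, where that of the 10 members was -0.96 and that of all genes 0.1. In KO at day 7, 5 of 15 were higher (17% over all genes) and none lower (15.6%), with a median of 0.59 against -0.04 over all genes. BNIP3, which acts in mitophagy, averaged 234 CPM against 78.9 in WT (log2 1.57, SE 0.33, adjusted p = 0.00306). EGLN1, the main oxygen-sensing prolyl hydroxylase, was higher by 1.14 (SE 0.26, adjusted p = 0.00467) and ERO1A, an oxidase of the endoplasmic reticulum, by 1.10 (SE 0.22, adjusted p = 0.00255). At day 3 in KO, 1 of 15 was higher (12.6% over all genes) and 2 lower (8.93%). The growth factor VEGFA was lower in KO at day 3 (log2 -1.32, SE 0.38, adjusted p = 0.0235), and at day 7 it averaged 76.3 CPM against 121 without passing (adjusted p = 0.0856). In HET at day 7, 1 of 15, ERO1A, was higher (8.31% over all genes; log2 0.91, SE 0.22, adjusted p = 0.0156).

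Of 9 regulators of the pathway, 2 were higher in KO at day 7 (17% over all genes), 2 lower (15.6%) and 5 did not pass. Such counts are near the shares over all genes. MYC (log2 1.79, SE 0.31, adjusted p = 0.00105) and MYCN (0.56, SE 0.17, adjusted p = 0.026) were higher. HIF3A (-1.46, SE 0.39, adjusted p = 0.0126) and MLXIP (-0.85, SE 0.15, adjusted p = 0.00108), which encodes a glucose-sensing transcription factor, were lower. The cell type markers also differed at day 7. The summed proliferation markers were at 42.8 to 50.9 CPM in KO and 75 to 259 in WT, with 7 of 8 lower where 15.6% of all genes were. The summed neuronal markers were at 19079 to 25655 CPM against 7391 to 15017, with 8 of 12 higher where 17% of all genes were. Fibroblast-like markers summed to 4.99 to 6.24 CPM in KO against 39.4 to 58.5 in WT, with 3 of 3 tested lower (15.6% over all genes, median log2 -2.91). Neural progenitor markers summed to 453 to 533 CPM in KO against 781 to 876 in WT, with 2 of 7 lower (15.6% over all genes). In HET, the proliferation markers summed to 44.4 to 55 CPM and the fibroblast-like markers to 6.15 to 40.7. Astrocyte markers summed to at most 6.84 CPM and mesendoderm markers to at most 0.736 in any library of day 7. Pluripotency markers summed to 231 to 311 CPM in KO against 66.9 to 72.5 in WT. Of the 3 tested, 1 was higher (17% over all genes) and 2 lower (15.6%), and their median log2 difference was -1.96. Their part in the glycolytic results was not tested.

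The genes most like each member over the 36 libraries, by Pearson's r of log2(CPM + 1) among 12060 genes with a mean of at least 5 CPM, are a description in which day and genotype are shared by all points. ALDOA and PFKP were each most like GAPDH, an enzyme later in the pathway than aldolase (r = 0.892 and 0.822). ENO2 was most like SCG5, a secretory-granule protein of neuroendocrine cells (0.963). LDHB was most like CKS1B, a cell cycle gene (0.957), and SLC2A3 most like MCL1 (0.967). ENO1 followed MTFP1 (0.939), HK2 SYT6 (0.923), HK1 SOD2 (0.906), ALDOC SERGEF (0.897) and LDHA FZD8 (0.805). Among the members themselves the closest pair was HK2 and ENO1 (0.82), both on the proliferative side. LDHB and LDHA were not each other's closest member, which was SLC2A3 for LDHB (0.546) and ENO1 for LDHA (0.725).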

How the data were processed

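RNA from 36 libraries was measured by paired-end sequencing after depletion of ribosomal RNA, per the labels' protocols. The authors deposited expected counts, TPM and FPKM per gene; the deposited expected counts are whole numbers. The deposited TPM are per length and scaled to a fixed total, with small structural RNAs in the total, and the deposited FPKM were not used for any result. The submitters' processing notes name the build GRCh38 and the tools cutadapt 4.8, FastQC 0.11.8, MultiQC 1.20, STAR 2.7.8a and RSEM 1.3.3; the annotation release and the use of strand are not given in the sources used here. Depth was 23948079 to 56678796 counts per library.

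Expected counts were rounded and fitted over all genes with edgeR 4.0.16 (TMM scaling, filterByExpr, glmQLFit and glmQLFTest, Benjamini-Hochberg at 0.05) in R 4.3.3: 12 WT libraries for the time course, 12 libraries of 1 day for genotypes, 36 for interactions. CPM use TMM-scaled totals over 36 libraries. Isoenzyme ratios use log2(TPM + 0.1). Coordinates are from GENCODE 29 (92.9% of 62710 gene IDs matched) and promoters from RefSeq. Members and gene lists were chosen with earlier results of these data known. All 10 members are named; of other pathway genes, up to 3 higher and 3 lower with the largest change, adjusted p under 0.05 and at least 5 CPM in the higher group; of hypoxia-response genes and regulators, up to 3. MYCN at day 7 and RAI1 are named beyond that rule, with their values known. Alternatives were DESeq2 1.42.0, its size factors, library size alone, limma 3.58.1 on log2(TPM + 1), no low-count filter, a replicate block, the structural RNA share as a covariate, all libraries in one fit, and each library left out. Limma on TPM rescaled without structural RNAs was added after seeing the data. Same-numbered libraries deviated together from their group means (every correlation above 0.1) for KO and WT at day 0 (0.265 to 0.649), KO and WT at day 3 (0.142 to 0.554) and HET and WT at day 3 (0.168 to 0.772); the labels give the numbers but no shared source. On simulated counts, edgeR recovered 26% of genes changed by log2 1 and 89% of those changed by log2 2 for KO against WT at day 3 (21141 genes, 5% of calls false), 64% and 96% for WT day 3 to day 7 (21711 genes) and 25% and 75% for the KO and WT interaction over that interval (23835 genes).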

Additional observations from a re-analysis of the deposited data

Results flagged for a closer look

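In 126 groups of 4 values, 12 had a highest or lowest library far from the other 3 (the gap to the nearest, over the whole range, was above the 95% critical value of Dixon), where chance gives about 1 in 20. Replicate 4 of HET at day 3 accounts for 6 of the 12. Its CPM were 496 for HK1 (others 216 to 243), 886 for ALDOA (239 to 282), 123 for ALDOC (12.5 to 20.6), 88.4 for ENO2 (12.8 to 20) and 409 for LDHA (194 to 231). Its log2 ratio of ENO2 over ENO1 was -4.11, where the others were at -5.81 to -5.56. None of the 10 genes was called between HET and WT at day 3 with it, and SLC2A3 was called without it.

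In WT at day 0, replicate 2 was high for ENO1 (1765 CPM, others 1465 to 1515) and SLC2A3 (1033, others 756 to 781). Replicate 3 of WT at day 7 was high for ENO1 (741, others 382 to 425), and replicate 1 of WT at day 3 low for LDHA (240, others 275 to 281). The log2 ratio of LDHB over LDHA was low in replicate 2 of HET at day 0 (1.95, others 2.29 to 2.36) and high in replicate 4 of WT at day 3 (2.57, others 2.38 to 2.39).

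The change from day 3 to day 7 differed between KO and WT by an interaction test for HK1 (2.07), HK2 (2.7), PFKP (2.52), ENO1 (1.67) and LDHA (2.07), on the log2 scale. Between HET and WT it differed for HK1 (1.3).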

How the results depend on the processing

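Over 3000 values of the 10 genes under alternatives, 2846 kept their side of the threshold, 106 lost a call and 42 gained one. Another 6 changed sign with a call in the main fit, in the alternative or in both. Of the 2846, 253 changed sign while not called either way. These 6 sign changes were, on log2 TPM, HK1 (-0.41), ALDOC (-0.09) and LDHB (-0.90) in WT from day 0 to day 3, ALDOC from day 0 to day 7 (-0.23) and LDHB in HET against WT at day 7 (0.37), and, with the structural RNA share as a covariate, ALDOC from day 0 to day 7 in WT (-0.18). LDHB in WT from day 0 to day 3 had no call in the main fit (edgeR adjusted p = 0.457), so no call was reversed there. On log2 TPM the median of all genes itself moved by -0.38 from day 0 to day 3, -0.52 from day 0 to day 7 and 0.46 in HET against WT at day 7. TPM gave 0 of the 10 for KO against WT at day 0 (238 of 20437 genes) and day 3 (816 of 21563). It also gave 0 for KO against HET at day 0 (121 of 20437) and day 7 (39 of 21714). HET against WT at day 7 (271 of 21714) and the HET interaction of days 3 to 7 (109 of 24764) had 0 too. The KO interaction of days 3 to 7 had 2 (942 of 24764). In the main fits those counts of all genes were 425, 4649, 175, 305, 3129, 1174 and 4588, so calls were fewer over all genes as well. TPM rescaled without structural RNAs was added after seeing the data. It gave 3 for HET against WT at day 7 (3217 of 21714 genes) and 1 for the KO interaction of days 0 to 3 (2177 of 24764). The structural RNA share as a covariate gave 2 for HET against WT at day 7 (2334 of 21714 genes) and 1 at day 3 (899 of 21563). For the HET interaction of days 3 to 7 it gave 0 (1464 of 24764). A single fit over all libraries gave 0 for KO against WT (342 of 24764 genes) and against HET (149) at day 0. For HET against WT at day 3 it gave 1 (1161 of 24764), and DESeq2 also gave 1 there (1321 of 21563). At day 3 the replicate block gave 5 for KO against WT (8138 of 21563 genes) and 1 for HET against WT (1895). It gave 1, PFKP, for KO against HET at day 3 (2739), and left 1 for KO against WT at day 0 (960 of 20437). Elsewhere the count stayed within 1.5 times. Apart from the pairs named in the methods, libraries share only a number. With 8 libraries compared, all 8 correlated best with their own number only for KO and WT at day 0. Leaving out 1 library gave 0 to 1 gene for KO against WT at day 0, 0 to 1 for HET against WT at day 3, 0 to 5 at day 7, 0 to 2 for KO against HET at day 7 and 0 to 2 for the HET interaction of days 3 to 7. The counts over all genes in those fits are not given here, and they too can fall with 1 library fewer. A pseudocount of 1 moved HK1 over HK2 in WT to 3.75 at day 3 and 3.25 at day 7, where HK2 TPM are low. Where not named, the cause was not tested. On simulated counts for KO against WT at day 3, 26% of genes changed by log2 1 were recovered, so smaller changes can go uncalled there. The simulation changed far fewer genes than the 4649 of 21563 called in the data. The adjusted p depends on that number, so the share recovered in the data can differ from 26%.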
